A study of Homo sapiens with 4 samples.

Results

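The transcripts of the mitochondrial genome and 6 nuclear genes whose products transcribe, copy and stabilise that genome were followed in RNA sequenced from HT-29 and NCM460 cells. The set holds 9 genes by symbol: MT-RNR2, MT-CO1 and MT-CYB from the mitochondrial genome, and TFAM, TFB2M, POLRMT, POLG, LRPPRC and SSBP1 from the nucleus. They fill 10 rows of the table, because SSBP1 is listed in 2 rows of which 1 is at 0 in all libraries, and 9 of the 18650 loci that remained after overlapping genes with the same values were merged. The genes were picked with values of these libraries already known, so their levels and changes are given as a description and no test is made on them.

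HT-29 is a human colorectal cancer line, and NCM460 is labelled as human colorectal cells and serves in the study as the normal colon line. Each line was left without additive (control) or was given 100 μg/mL of SCS, a chondroitin sulfate from sturgeon, for 24 h. Both lines were kept in serum-containing medium, with a higher percentage of serum for NCM460 than for HT-29 cells. Serum level and cell line therefore cannot be told apart in comparisons between the lines. With a single library behind each of the 4 conditions, differences between them have no replicate check, and every interval covers counting error only. The libraries held between 1156568 and 1654764 fragments on named loci, and between 507692 and 1383424 of these were nuclear. Whether RNA was selected by its poly(A) tail or depleted of ribosomal RNA, and whether strand was used in counting, is not given in the sources used here.

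Mitochondrial DNA is a small circle that is transcribed from both strands into long precursors, which are cut at the tRNAs that lie between the other genes. The single RNA polymerase POLRMT is brought to the promoters by TFAM, which also packs the DNA, and melts them with TFB2M. The same genome is copied by the polymerase POLG on strands coated by SSBP1, and LRPPRC binds and stabilises the messenger RNAs once they are made. Its products are ribosomal RNAs, tRNAs and subunits of the respiratory chain, and epithelial cells of the colon depend on them for oxidative ATP supply.

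The labels were checked against marker genes. The epithelial markers EPCAM, CDH1, KRT8, KRT18 and KRT19 were all present in the 4 libraries, with a summed level between 2648 and 6332 CPM (counts per 1000000, with library totals adjusted by TMM, a scaling that trims extreme loci). Of 6 intestinal markers, VIL1, LGALS4 and KRT20 had between 24 and 464 fragments in the HT-29 libraries and were at 0 in both NCM460 libraries, while CDX2 had 14 and 12 fragments in NCM460 cells and was at 0 in HT-29 cells. CDX1 was at 0 in all libraries, and CDH17 had 1 fragment in the HT-29 control and was at 0 in the other libraries. The summed level of 6 markers of other cells (VIM, ZEB1, COL1A1, PECAM1, PTPRC and CD14) stayed between 4.89 and 24.4 CPM, and PTPRC and CD14 were at 0 throughout.

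Of 37 rows of the mitochondrial genome, 34 were above 0, and identical values joined these into 5 loci. Their positions in the table are the same as in GENCODE 29 on GRCh38 for 34 of 34 rows, although the submitters' notes name hg19. The MT-RNR2 locus (chrM:577-5579, MT-RNR2 itself ENSG00000210082 at chrM:1671-3229) combines both ribosomal RNAs with MT-ND1, MT-ND2 and 6 tRNAs. The MT-CO1 locus (chrM:5904-14148, MT-CO1 itself ENSG00000198804 at chrM:5904-7445) combines 9 protein genes, from the subunits of cytochrome oxidase and ATP synthase to MT-ND4 and MT-ND5, with 7 tRNAs. The MT-CYB locus (chrM:14747-15953, ENSG00000198727) holds cytochrome b and MT-TT. In the 2 loci annotated on the other strand, MT-ND6 is joined with MT-TE (chrM:14149-14742), and MT-TA with MT-TN, MT-TC and MT-TY (chrM:5587-5891). MT-TQ, MT-TS1 and MT-TP were at 0. Ribosomal and messenger RNA of the first locus can therefore not be separated, and the fragments of the last 2 loci cannot be told apart from RNA of the opposite strand.

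The 4 tRNAs of the MT-TA locus are shown because theirs was the mitochondrial locus that stood apart from the others below. They were read from the GENCODE 29 transcripts on GRCh38, all on the minus strand, and run from 5′ to 3′. The anticodon, found as the known triplet inside a loop of 7 bases closed by a stem of 5 base pairs, is in capitals.
MT-TY (tyrosine, chrM:5826-5891): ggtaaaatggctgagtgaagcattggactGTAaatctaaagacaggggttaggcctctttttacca
MT-TC (cysteine, chrM:5761-5826): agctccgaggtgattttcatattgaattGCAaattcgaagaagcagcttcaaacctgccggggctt
MT-TN (asparagine, chrM:5657-5729): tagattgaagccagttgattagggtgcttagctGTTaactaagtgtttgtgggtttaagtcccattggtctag
MT-TA (alanine, chrM:5587-5655): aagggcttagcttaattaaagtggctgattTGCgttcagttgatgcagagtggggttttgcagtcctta

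The upstream sequences of the 3 members that start mitochondrial transcription are shown because their promoters are known targets of the regulators NRF1 and GABP. Each run is the 250 bases before the start of the gene in RefSeq (GRCh38.p14), 5′ to 3′ on the strand of the gene. By the wider gene positions given below with each member, the TFAM window lies inside the gene. Those of TFB2M and POLRMT overlap the first bases of theirs. Capitals mark every match, on either strand, to GCNTGCGC (an NRF1-type core) or to CGGAAG (an ETS-type core of the kind GABP binds).
TFAM (chr10:58385160-58385409, plus strand): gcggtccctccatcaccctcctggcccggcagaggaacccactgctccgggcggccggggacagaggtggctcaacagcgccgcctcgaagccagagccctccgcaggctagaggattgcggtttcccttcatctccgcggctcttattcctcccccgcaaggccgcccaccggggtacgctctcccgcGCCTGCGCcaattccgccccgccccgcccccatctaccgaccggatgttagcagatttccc
TFB2M (chr1:246566262-246566511, minus strand): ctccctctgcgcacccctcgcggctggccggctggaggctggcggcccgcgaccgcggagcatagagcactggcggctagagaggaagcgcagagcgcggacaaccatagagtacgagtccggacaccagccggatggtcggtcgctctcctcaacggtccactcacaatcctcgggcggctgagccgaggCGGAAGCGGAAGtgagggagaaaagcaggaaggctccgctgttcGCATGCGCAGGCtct
POLRMT (chr19:633538-633787, minus strand): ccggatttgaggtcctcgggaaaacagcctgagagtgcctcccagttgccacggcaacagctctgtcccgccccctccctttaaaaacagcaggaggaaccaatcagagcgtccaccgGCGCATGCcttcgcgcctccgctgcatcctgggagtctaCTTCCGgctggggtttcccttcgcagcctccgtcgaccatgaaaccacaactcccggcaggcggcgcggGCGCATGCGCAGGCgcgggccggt

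The core GCNTGCGC was matched 1 time before TFAM, 2 times before TFB2M and 4 times before POLRMT. Some of these matches overlap: both of TFB2M lie in 1 stretch, and those of POLRMT lie in 2. The core was absent from the windows of POLG, LRPPRC and SSBP1, and 10.4% of all 35116 windows held it. CGGAAG was matched 2 times before TFB2M and 1 time each before POLRMT, LRPPRC and a start of SSBP1, and 16.5% of all windows held it. The motifs shared no base in any of these windows. A match describes the letters only, and binding was not measured.

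The mitochondrial share of the library was lower with SCS in both cell lines. In HT-29 cells the 5 loci took 35.8% of all fragments in the control (95% exact Clopper-Pearson interval 35.8 to 35.9, 593064 fragments) and 13.8% with SCS (13.8 to 13.9, 221948 fragments). In NCM460 cells they took 62.3% (62.3 to 62.4, 840162 fragments) in the control and 46.3% (46.2 to 46.3, 534986 fragments) with SCS. The highest share was thus that of untreated NCM460 cells and the lowest that of HT-29 cells with SCS, and none of the 4 intervals overlapped. The share in HT-29 cells with SCS was 2.59-fold below its control, a log2 ratio of -1.37 (-1.38 to -1.37). In NCM460 cells it was 1.35-fold lower, a log2 ratio of -0.43 (-0.44 to -0.43). Counted against the nuclear fragments of the same library, the mitochondrial fragments came to 55.9 per 100 in untreated HT-29 cells and 16.0 under SCS, and to 165 and 86.1 per 100 in the corresponding NCM460 libraries. In bulk RNA, less mitochondrial RNA per cell cannot be told apart from more nuclear RNA per cell, nor fewer cells of a kind from less RNA per cell. The MT-RNR2 locus of the NCM460 control is deposited to 3 digits only, which leaves this share between 62.3% and 62.4%.

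**Figure D1:**
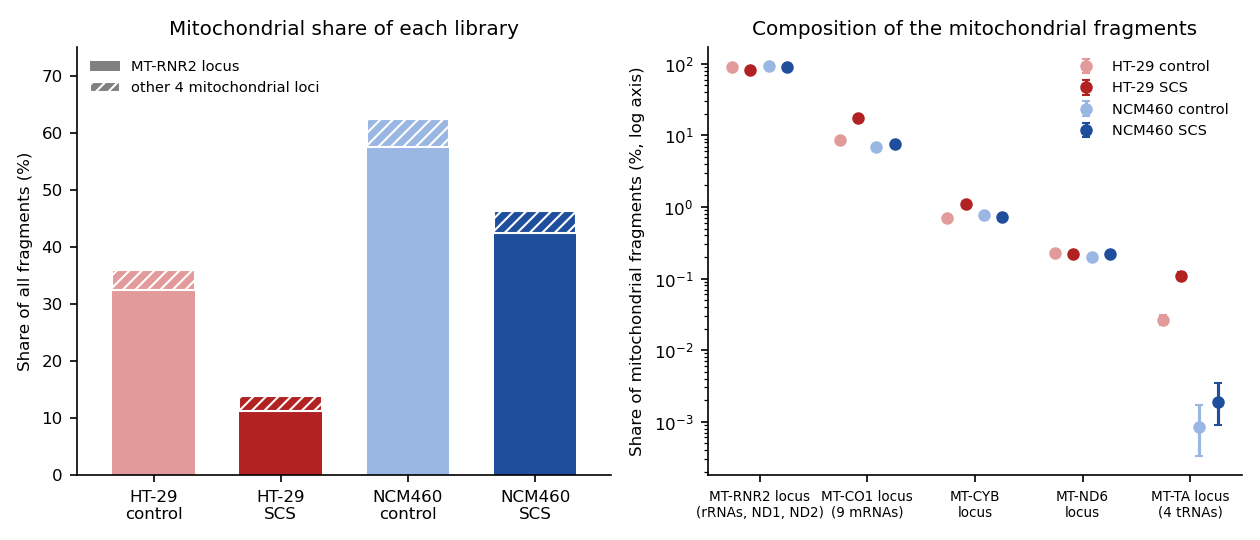
Left, share of all fragments on the mitochondrial genome in each library (%), with the MT-RNR2 locus in plain colour and the other 4 loci hatched. Right, share of the mitochondrial fragments on each locus (%, log axis) with 95% counting intervals: the MT-CO1 locus was at 17.5% in HT-29 cells with SCS and between 6.95% and 8.64% in the other libraries, and the MT-TA locus was highest in the same library.

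The difference in HT-29 cells was unequal along the genome, and of the 5 loci its value was largest at that of the ribosomal RNAs. It could not be told apart from that of the MT-ND6 locus by counting intervals. In HT-29 cells there were 401 MT-RNR2 fragments per MT-ND6 fragment in the control (380 to 423) and 369 with SCS (338 to 404). The locus of the ribosomal RNAs had 536135 fragments in the HT-29 control and 180026 with SCS, and 773608 and 489597 in NCM460 cells. It made up 90.4% of the mitochondrial fragments in the HT-29 control (90.3 to 90.5) and 81.1% with SCS (80.9 to 81.3). In NCM460 cells its part was 92.1% (92.0 to 92.1) and 91.5% (91.4 to 91.6). The library of HT-29 cells with SCS was the one that differed most in this respect. On the TMM scale the log2 fold change of the locus (the log2 difference of CPM, SCS less control) was -1.81 (-1.81 to -1.80) in HT-29 cells and -1.13 (-1.14 to -1.13) in NCM460 cells.

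The MT-CO1 locus carries most of the protein genes. Its fragments numbered 51263 in the HT-29 control, 38730 with SCS, 58351 in the NCM460 control and 40362 with SCS. The log2 fold change with SCS was -0.64 (-0.66 to -0.62) in HT-29 cells and -1.01 (-1.02 to -0.99) in NCM460 cells. There were 10.5 fragments on the MT-RNR2 locus for each fragment on the MT-CO1 locus in the HT-29 control (10.4 to 10.6) and 4.65 with SCS (4.60 to 4.70). In NCM460 cells this ratio was 13.3 (13.1 to 13.4) and 12.1 (12 to 12.3). Ratios within a library do not depend on how libraries are scaled, and against the MT-CO1 locus the ribosomal locus was lower with SCS in both lines, by more in HT-29 cells.

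MT-CYB encodes the mitochondrial subunit of complex III. It had 4172 fragments in the HT-29 control and 2466 with SCS, a log2 difference of -0.99 (-1.06 to -0.92). In NCM460 cells it had 6542 and 3827, a log2 difference of -1.25 (-1.31 to -1.19). MT-ND6 is the complex I subunit encoded on the other strand. In HT-29 cells its locus had 1337 and 488 fragments, which is -1.68 (-1.84 to -1.54) on the log2 scale. In NCM460 cells it had 1654 and 1190, which is -0.95 (-1.06 to -0.84). In HT-29 cells MT-ND6 thus lay nearer to the ribosomal locus than to the other messenger RNAs: there were 3.12 MT-CYB fragments for each MT-ND6 fragment in the control (2.93 to 3.32) and 5.05 with SCS (4.58 to 5.58). In NCM460 cells this ratio went the other way, from 3.96 (3.75 to 4.18) to 3.22 (3.01 to 3.44). Against MT-CYB the ribosomal locus differed in direction between the lines: its fragments per MT-CYB fragment were 129 (125 to 133) and 73.0 (70.2 to 76.0) in HT-29 cells, and 118 (115 to 121) and 128 (124 to 132) in NCM460 cells. When libraries were scaled by their totals alone, MT-CO1 was not past 1.5-fold in HT-29 cells, at -0.36, nor were the MT-RNR2, MT-CO1 and MT-CYB loci in NCM460 cells, at -0.44, -0.31 and -0.55.

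The locus of the 4 tRNAs printed above had a pattern of its own. It had 157 fragments in the HT-29 control, 238 with SCS, 7 in the NCM460 control and 10 with SCS. Its log2 fold change with SCS was 0.36 (0.07 to 0.67) in HT-29 cells, which is under the 1.5-fold needed for a call, and 0.04 (-1.50 to 1.67) in NCM460 cells, where no direction was detectable at this depth. Its part of the mitochondrial fragments in HT-29 cells went from 0.0265% (0.0225 to 0.0310) to 0.107% (0.0940 to 0.122), against 0.000833% (0.000335 to 0.00172) and 0.00187% (0.000896 to 0.00344) in NCM460 cells. The other 4 loci were lower in HT-29 than in NCM460 cells, and this locus was higher in HT-29 cells, by a log2 difference of 2.93 (2.02 to 4.43) between the controls and 3.25 (2.52 to 4.5) with SCS.

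**Figure D2:**
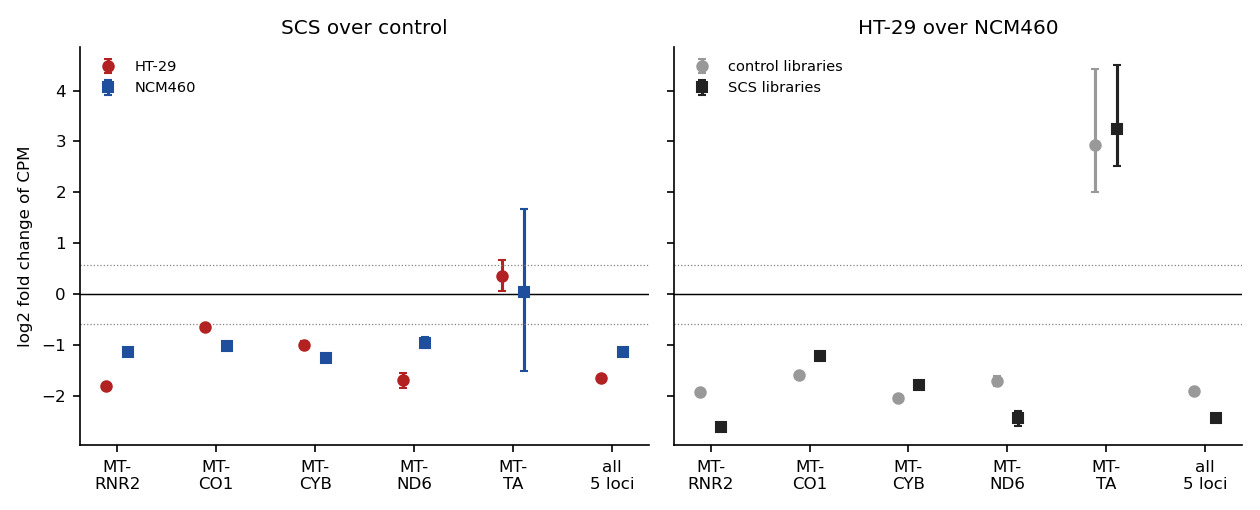
log2 fold change of CPM (TMM scale) for each mitochondrial locus and for all 5 together, SCS over control within each line (left) and HT-29 over NCM460 at a matched treatment (right), with 95% counting intervals and dotted lines at 1.5-fold. All loci but MT-TA lie below 0 in each comparison, and the 2 lines differ in order, with MT-RNR2 lowest in HT-29 cells at -1.81 and MT-CYB lowest in NCM460 cells at -1.25. In HT-29 cells the interval of MT-ND6 (-1.84 to -1.54) holds the value of MT-RNR2.

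Levels were also set per kilobase of genome and scaled to the nuclear total (fragments per kilobase, if each library held 1000000 nuclear fragments). On this scale the levels of the loci differed widely within a library. In the HT-29 control the MT-RNR2 locus stood at 100935 fragments per kilobase, the MT-CO1 locus at 5856, the MT-CYB locus at 3256, the MT-ND6 locus at 2120 and the MT-TA locus at 485. The same order held in the other 3 libraries, where the MT-RNR2 locus stood at 26011 (HT-29 with SCS), 304572 (NCM460 control) and 157438 (NCM460 with SCS). Both loci annotated on the other strand together took 0.252% of the mitochondrial fragments in the HT-29 control (0.239 to 0.265), 0.327% with SCS (0.304 to 0.352), 0.198% in the NCM460 control (0.188 to 0.207) and 0.224% with SCS (0.212 to 0.237). That part was higher with SCS in each line. In HT-29 cells this was so of the MT-TA locus only, since the part of MT-ND6 was 0.225% (0.214 to 0.238) and 0.220% (0.201 to 0.240).

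Nuclear copies of mitochondrial genes could take up mitochondrial fragments. Of 28 such loci, 5 to 21 had fragments in a library, 327 in all in the HT-29 control, 471 with SCS, 605 in the NCM460 control and 395 with SCS. This is between 0.0551 and 0.212 per 100 mitochondrial fragments, and counting them as mitochondrial left the log2 ratios of the share at -1.37 and -0.43. Most of these fragments were on a merged locus on chromosome 1 that holds copies of MT-ATP8 and MT-ATP6 (chr1:633535-634922), with 283, 382, 567 and 363 fragments in the same order.

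For the nuclear members, a locus was called higher or lower when its log2 fold change passed 1.5-fold and its counting interval excluded 0, among loci that averaged 1 CPM or more. All 9 members passed that filter in all 4 comparisons. In HT-29 cells 0 members were called higher and 4 lower with SCS, namely the 3 mitochondrial loci and TFAM. Over all 12168 loci, 31.5% were called in that comparison, 16.8% higher and 14.8% lower. In NCM460 cells 2 members were called higher, LRPPRC and SSBP1, and 4 lower, the 3 mitochondrial loci and POLG, where 29.2% of 12657 loci were called, 15.4% higher and 13.8% lower. Since the members were chosen on these values, nothing is read from the counts. For HT-29 cells the 6 nuclear members had a median log2 fold change of -0.09, with 0.07 over all loci. Medians of their lower and upper interval bounds were -0.73 and 0.30. For NCM460 cells the median was 1.00, with 0.03 over all loci, and the medians of the bounds were -0.61 and 2.43. This 1.00 falls between TFB2M (0.62, 2 and 5 fragments) and TFAM (1.38, 3 and 13 fragments), whose intervals both hold 0. No shared direction of the 6 is therefore read from it.

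The GC content of transcripts moved with these values. Across nuclear loci the log2 fold change with SCS had a Spearman's rho of -0.63 with GC content in NCM460 cells (12595 loci) and of -0.12 in HT-29 cells (12101 loci); loci of a library share its preparation and are not independent. GC content was 38.4% for TFAM, 41.9% for TFB2M, 42.4% for LRPPRC, 44.1% for SSBP1, 58.5% for POLG and 66.3% for POLRMT. With a smooth trend on GC content subtracted, the median of the 6 was -0.16 in HT-29 cells and 0.17 in NCM460 cells, and the calls among them in HT-29 cells were 0 higher and 1 lower (TFAM), where 30.4% of loci were called, 14.5% higher and 15.9% lower. In NCM460 cells these calls were 2 higher and 0 lower, where 11.9% of loci were called, 5.58% higher and 6.27% lower. Apart from this subtraction, the part of GC content in these values was not tested. The longest transcripts of the mitochondrial loci have GC contents between 41.1% and 46.3%. In NCM460 cells the trend of nuclear loci was 0.84 at the GC content of LRPPRC and 0.63 at that of SSBP1. No trend was fitted to the mitochondrial loci, so the part of GC content in their values was not tested.

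TFAM (ENSG00000108064, chr10:58385022-58399221) packs mitochondrial DNA and brings POLRMT to its promoters. TFAM had 76 fragments in the HT-29 control, 46 with SCS, 3 in the NCM460 control and 13 with SCS. The HT-29 libraries were thus the higher ones by CPM, at 37.1 and 19.1 against 3.85 and 12. With SCS the lines did not differ beyond counting error, with a log2 difference of HT-29 over NCM460 of 0.62 (-0.24 to 1.68). By the authors' FPKM values, used as an alternative unit, HT-29 cells with SCS were the lowest, at 4.03 against 6.64 and 7.29 in NCM460 cells. In HT-29 cells TFAM was lower with SCS, with a log2 difference of -0.91 (-1.52 to -0.41), and it kept its call under each of 10 alternatives. In NCM460 cells the ratio of SCS over control was 3.12 with a counting interval from 0.858 to 17.1, so no direction was detectable at this depth. Of the nuclear members, TFAM was the only one called in the direction of the mitochondrial loci in HT-29 cells.

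TFB2M (ENSG00000162851, chr1:246540560-246566324) is the factor that melts the promoter with POLRMT. HT-29 cells had 23 and 28 fragments of it, control first, and NCM460 cells 2 and 5. Its log2 fold change in HT-29 cells was 0.05 (-0.80 to 0.91), and in NCM460 cells the ratio was 1.80 with an interval from 0.295 to 18.9. At these counts no change of less than several fold could be seen in NCM460 cells.

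POLRMT (ENSG00000099821, chr19:617223-633604) is the RNA polymerase itself. It had 46 and 52 fragments in HT-29 cells, 106 in the NCM460 control and 98 in NCM460 cells with SCS. At 136 and 90.6 CPM the NCM460 libraries lay above the HT-29 libraries at 22.5 and 21.6 CPM, and the intervals of the 2 lines did not overlap. The log2 fold change with SCS was -0.05 (-0.66 to 0.55) in HT-29 cells. In NCM460 cells it was -0.58 (-1.0 to -0.18), just under the 1.5-fold threshold. It was called lower there under 4 of 10 alternatives, and with the GC trend subtracted it was 0.16 (-0.26 to 0.56). On the scale of CPM, POLRMT was the only nuclear member whose levels had the same order over the 4 libraries as the 3 mitochondrial members. That order ran from the NCM460 control down to HT-29 with SCS, although the 2 HT-29 libraries did not differ in POLRMT beyond their counting intervals. With libraries scaled by their totals alone, POLRMT did not keep this order: its log2 fold change with SCS was 0.21 in HT-29 and 0.11 in NCM460 cells.

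POLG (ENSG00000140521, chr15:89316305-89334861) is the catalytic subunit of the mitochondrial DNA polymerase. HT-29 cells had 126 fragments in the control and 105 under SCS, and NCM460 cells 42 and 33. Its levels were the most even of the members, between 30.5 and 61.6 CPM, and no neighbours in their order differed beyond their counting intervals. The log2 fold change with SCS was -0.48 (-0.88 to -0.11) in HT-29 cells, short of the threshold, and -0.80 (-1.52 to -0.13) in NCM460 cells. The latter was not called when the GC trend was subtracted, at -0.17 (-0.90 to 0.50), nor when libraries were scaled by their total or nuclear total alone.

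LRPPRC (ENSG00000138095, chr2:43886508-43996005) keeps mitochondrial messenger RNAs stable and polyadenylated. It had 217 and 266 fragments in HT-29 cells, 39 in the NCM460 control and 153 in NCM460 cells with SCS. The NCM460 control was the low library, at 50.1 CPM, and the other 3 lay between 106 and 141 CPM with overlapping intervals between neighbours. In NCM460 cells the log2 fold change was 1.48 (0.98 to 2.04), and 0.64 (0.15 to 1.21) with the GC trend subtracted. In HT-29 cells it was 0.06 (-0.20 to 0.33).

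SSBP1, which coats single strands of mitochondrial DNA, is listed on an alternate contig of chromosome 7 (ENSG00000262771) in a locus merged with TAS2R6P, so its value is uncertain. It had 93 and 99 fragments in HT-29 cells, 10 in the NCM460 control and 44 in NCM460 cells with SCS. As for LRPPRC by CPM, the NCM460 control was the low library, at 12.8 CPM, while the other 3 lay between 40.7 and 45.5 CPM. The log2 fold change was -0.14 (-0.56 to 0.28) in HT-29 cells and 1.57 (0.65 to 2.82) in NCM460 cells, or 0.94 (0.02 to 2.19) with the GC trend subtracted.

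**Figure D3:**
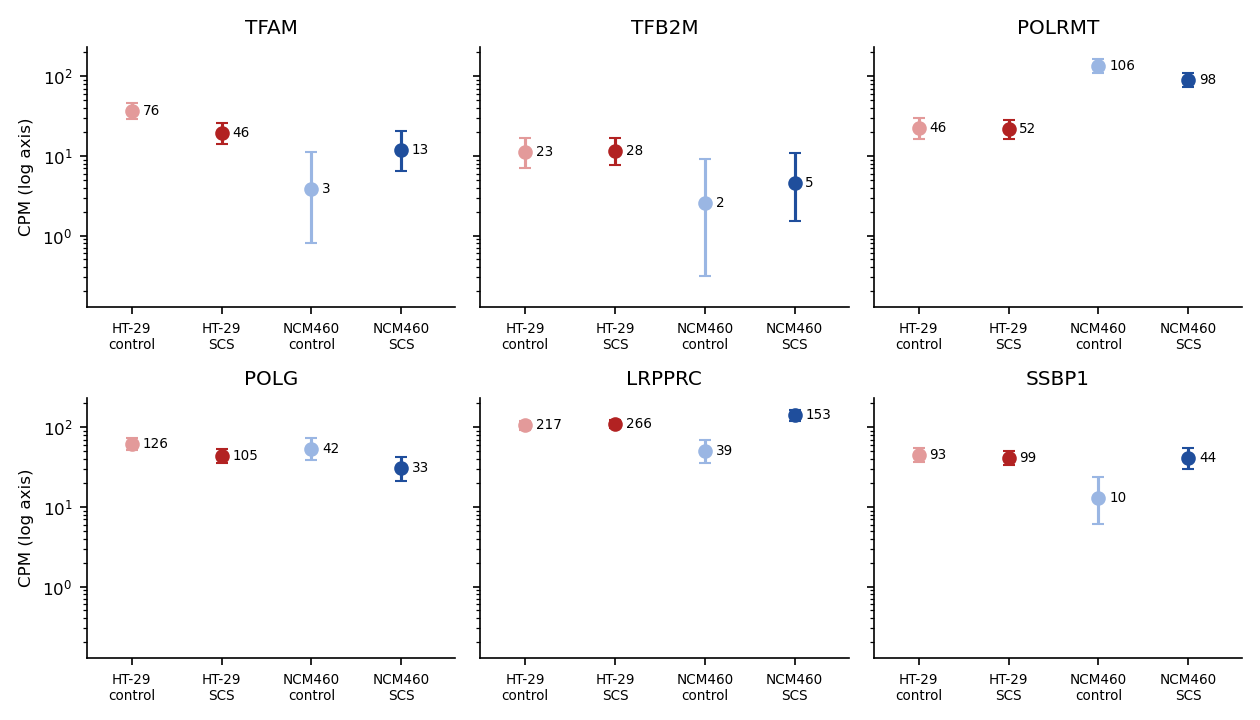
CPM (TMM scale, log axis) of the 6 nuclear members in each library with 95% counting intervals; the number beside each point is its fragments. POLRMT is higher in the NCM460 libraries, at 136 and 90.6 CPM, and TFAM and TFB2M rest on 3 and 2 fragments in the NCM460 control.

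**Figure D4:**
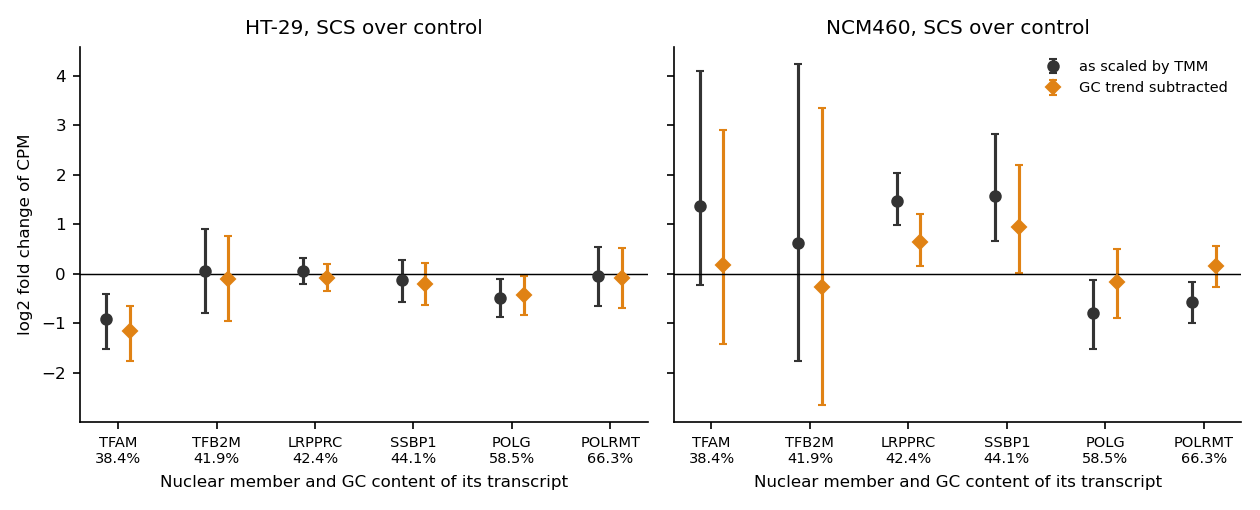
log2 fold change of CPM with SCS for the 6 nuclear members, ordered by the GC content of their transcripts, before (circles) and after (diamonds) a trend on GC content was subtracted, with 95% counting intervals. In NCM460 cells the members of low GC content lie above 0 and those of high GC content below 0 before the trend was subtracted, and all but LRPPRC and SSBP1 have intervals that hold 0 after it.

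The mitochondrial fragments were also set against those of the nuclear members. Fragments of the 6 nuclear members summed to 581 in the HT-29 control, 596 with SCS, 202 in the NCM460 control and 346 with SCS. For each of their fragments there were 1021 mitochondrial fragments in the HT-29 control, 372 with SCS, 4159 in the NCM460 control and 1546 with SCS. Per POLRMT fragment alone the figures were 12893, 4268, 7926 and 5459, a narrower range over the libraries. On the scale of CPM the sum of the 6 was 284, 248, 259 and 320 in the same order. In this sum members that differed in opposite directions offset each other, and TFAM alone ranged from 3.85 to 37.1 CPM and POLRMT from 21.6 to 136 CPM.

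Between the cell lines, the mitochondrial members were lower in HT-29 than in NCM460 cells at both treatments. In the controls the log2 fold changes of HT-29 over NCM460 were -1.92 (-1.93 to -1.92) for the MT-RNR2 locus, -1.58 (-1.60 to -1.56) for MT-CO1 and -2.04 (-2.10 to -1.99) for MT-CYB. With SCS they were -2.60 (-2.60 to -2.59), -1.21 (-1.23 to -1.19) and -1.78 (-1.86 to -1.71). POLRMT was lower in HT-29 cells as well, by -2.53 (-3.13 to -2.09) in the controls and -2.0 (-2.58 to -1.57) with SCS. With the GC trend subtracted these values were -1.38 (-1.97 to -0.93) and -1.59 (-2.16 to -1.15). Across nuclear loci the log2 fold change between the lines had a Spearman's rho of -0.51 with GC content in the controls and -0.15 with SCS.

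None of the other nuclear members was called lower in HT-29 cells. In the controls, TFAM was 9.64-fold higher in HT-29 cells with an interval from 3.18 to 47.8, TFB2M 4.38-fold with an interval from 1.08 to 38.3, and both are set against 3 fragments or fewer. LRPPRC had a log2 difference of 1.06 (0.59 to 1.61), SSBP1 of 1.73 (0.88 to 2.93) and POLG of 0.19 (-0.32 to 0.73). With SCS none of these 5 was called, with values from -0.35 for LRPPRC to 1.13 for TFB2M, and the NCM460 levels of LRPPRC and SSBP1 were higher than in the control. In all, 4 members were called higher and 4 lower in the controls, where 48.4% of 12691 loci were called, 25.3% higher and 23.1% lower. With SCS 0 were called higher and 4 lower, where 46.6% of 13050 loci were called, 24.2% higher and 22.4% lower. After the GC trend was subtracted, the calls among the 6 nuclear members were 3 higher and 1 lower in the controls, where 37.8% of loci were called, and 1 higher and 1 lower with SCS, where 46.4% were. The genes were not the same: in the controls TFB2M (0.70, -0.89 to 4.25) and LRPPRC (0.12, -0.36 to 0.67) were then not called and POLG was called higher (0.89, 0.37 to 1.43), and with SCS the call higher was also POLG (0.64, 0.08 to 1.27). TFB2M was not called in the controls with DESeq2 size factors either. These comparisons share their libraries with those of SCS over control.

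The nuclear loci whose levels over the 4 libraries were most like those of the summed mitochondrial genome were found by the distance between centred log2 CPM values, among 5285 loci that averaged 20 CPM or more. The nearest 5 were HIST2H2BF, ENO1, HIST1H2AG, PDXP merged with SH3BP1, and HIST1H3H, at distances between 0.0846 and 0.195. ENO1, an enzyme of glycolysis, had 1673 and 723 fragments in the HT-29 libraries, and 2399 and 1563 in those of NCM460. HIST2H2BF, a core histone gene from a family of near-identical copies, had 351, 138, 529 and 343 in the same order. Of the members, POLRMT came at rank 310 with a distance of 1.20, POLG at 2269, LRPPRC at 3368 and SSBP1 at 3910, and TFAM and TFB2M were under 20 CPM. With 4 libraries, 1 per condition, this is a description only.

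Lists of other genes of the pathway were then counted, with the members among them. The list of mitochondrial transcription and nucleoid genes held 15 loci. In HT-29 cells 1 was called higher and 5 lower (31.5% of all loci called), with a median log2 fold change of -0.03. LONP1, the protease that degrades TFAM, was the highest, with 125 and 251 fragments and a log2 difference of 0.76 (0.46 to 1.10), and ATAD3A, a membrane protein of the nucleoid, was the lowest of those that averaged 5 CPM or more, with 82 and 38 fragments and a log2 difference of -1.28 (-1.94 to -0.77). In NCM460 cells 2 were called higher and 3 lower (29.2% of all loci called), with a median of 0.62 (0.08 with the GC trend subtracted). There MTERF1, a factor of transcription termination, had 1 and 10 fragments, a ratio of 7.20 with an interval from 1.02 to 313, and LONP1 had 225 and 118 fragments and a log2 difference of -1.39 (-1.74 to -1.08). MRPL12, a ribosomal protein that also binds POLRMT and whose locus is merged with SLC25A10, was called lower in both lines, with log2 fold changes of -1.26 (-1.80 to -0.83) and -0.72 (-1.16 to -0.29), the latter at 0.01 with the GC trend subtracted. With that trend subtracted, the NCM460 calls of the list were 2 higher, SSBP1 and ATAD3A (0.73, 0.14 to 1.32), and 1 lower, LONP1 (-0.69). MTERF1 was then not called (0.76, -1.25 to 7.0).

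Of 15 loci for mitochondrial DNA replication and nucleotide supply, 2 were called higher and 2 lower in each line, near the 31.5% and 29.2% called over all loci. The medians were -0.29 in HT-29 cells and 0.44 in NCM460 cells. The helicase C10orf2 (TWNK) was called lower in both, with 36 and 19 fragments in HT-29 cells, a log2 difference of -1.04 (-2.04 to -0.31), and 46 and 25 in NCM460 cells, a log2 difference of -1.31 (-2.12 to -0.62). RRM2B, the ribonucleotide reductase subunit that supplies nucleotides outside S phase, was called higher in both. It had 18 and 65 fragments in HT-29 cells, a log2 difference of 1.49 (0.85 to 2.46), and 3 and 25 in NCM460 cells, a ratio of 6.0 with an interval from 1.83 to 31.1. SLC25A36, a pyrimidine nucleotide carrier, had 52 and 181 fragments in HT-29 cells, a log2 difference of 1.52 (1.12 to 2.04), and 9 and 41 in NCM460 cells, a log2 difference of 1.61 (0.65 to 2.94). Neither RRM2B nor SLC25A36 was called in NCM460 cells with the GC trend subtracted, and C10orf2 was, so that 0 calls higher and 1 lower were left there. DNA2, a nuclease and helicase shared with nuclear replication, was the lowest in HT-29 cells with 25 and 6 fragments, a log2 difference of -1.84 (-3.87 to -0.97).

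Among 36 loci for processing, polyadenylation, stability and decay of mitochondrial RNA, 1 was called higher and 7 lower in HT-29 cells (31.5% of all loci called, 14.8% lower), with a median of -0.11. In NCM460 cells 35 were tested, and 5 were called higher and 3 lower (29.2% of all loci called), with a median of 0.23 and, with the GC trend subtracted, -0.08. SLIRP, the partner of LRPPRC, lies in a locus merged with C14orf178, where HT-29 cells had 24 and 14 fragments and NCM460 cells 9 and 33. Its log2 fold change was -0.87 in HT-29 cells, a call lower whose interval ended just below 0 (-2.07 to -0.00). In NCM460 cells it was 1.31 (0.31 to 2.65), or 0.18 with the GC trend subtracted. FASTKD5, merged with UBOX5, was the highest in HT-29 cells at 0.98 (0.52 to 1.53), and PDE12, which removes poly(A) tails in mitochondria, was the lowest at -1.25 (-2.24 to -0.56). RPUSD4, a pseudouridine synthase for the large ribosomal RNA, was called lower in both lines, with 47 and 29 fragments in HT-29 cells at -0.86 (-1.65 to -0.23) and 24 and 15 in NCM460 cells at -1.08 (-2.19 to -0.16). In NCM460 cells RNMTL1 (MRM3), a methyltransferase for the same RNA, was the lowest at -1.14 (-2.24 to -0.23), and FASTKD1 had 1 and 10 fragments, a ratio of 7.20 with an interval from 1.02 to 313. With the GC trend subtracted, the NCM460 calls were 1 higher, which was LRPPRC, and 2 lower, neither of which had been called before. FASTKD1 (0.81, -1.20 to 7.05), RPUSD4 and RNMTL1 were then not called.

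The nuclear regulators of mitochondrial genes gave 1 call higher and 1 lower of 13 loci in HT-29 cells (31.5% of all loci called), with a median of -0.12, and 5 higher and 2 lower of 14 in NCM460 cells (29.2%), with a median of 0.16. In HT-29 cells TFE3 was the highest at 0.64 (0.26 to 1.05) and MYC the lowest at -0.72 (-1.0 to -0.46). In NCM460 cells CREB1 was the highest, with 4 and 29 fragments and a log2 difference of 2.13 (0.87 to 4.35), and POLDIP2, a partner of the mitochondrial polymerases, the lowest at -1.07 (-1.63 to -0.56). With the GC trend subtracted, 1 call higher (YY1) and 0 lower were left in NCM460 cells, and CREB1 was not called (0.83, -0.43 to 3.05).

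Of 18 loci that mark mitochondrial mass, 2 were called higher and 8 lower in HT-29 cells, where 16.8% of all loci were called higher and 14.8% lower. Their median was -0.42, against 0.07 over all loci. In NCM460 cells 5 were called higher and 3 lower, where 15.4% and 13.8% of all loci were, with a median of 0.05. TOMM40, the import pore, was called lower in both lines at -1.01 (-1.32 to -0.73) and -1.0 (-1.55 to -0.51), as was MDH2, a dehydrogenase of the citric acid cycle, at -0.68 (-0.96 to -0.41) and -0.79 (-1.04 to -0.54). HSPA9, the matrix chaperone, was called higher in both, at 0.71 (0.55 to 0.88) and 0.75 (0.39 to 1.1). The voltage-dependent channel VDAC3 was the lowest in HT-29 cells at -1.04 (-2.42 to -0.13) and TIMM44 the highest at 0.82 (0.26 to 1.52). HSPD1, the chaperonin of the matrix, was the highest in NCM460 cells, with 85 and 605 fragments and a log2 difference of 2.34 (2.03 to 2.70), or 1.74 with the GC trend subtracted. TOMM40, MDH2 and HSPA9 were not called in NCM460 cells with that trend subtracted, at -0.38, -0.49 and 0.05, and the counts of the list became 2 higher and 0 lower (11.9% of all loci called).

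The respiratory chain subunits encoded in the nucleus work beside the products of MT-CO1 and MT-CYB. Of 76 loci, 1 was called higher and 25 lower in HT-29 cells (31.5% of all loci called, 14.8% lower), with a median of -0.39. In NCM460 cells 15 were called higher and 4 lower (29.2% of all loci called, 15.4% higher), with a median of 0.05. With the GC trend subtracted the counts were 1 higher and 29 lower in HT-29 cells (30.4% of all loci called) and 9 higher and 11 lower in NCM460 cells (11.9%). In HT-29 cells ATP5G3, a subunit of ATP synthase whose locus is merged with a Y_RNA, was the lowest, with 90 and 43 fragments and a log2 difference of -1.24 (-1.86 to -0.76), and NDUFS4, a subunit of complex I, was the highest at 0.62 (-0.15 to 1.57), which was not called. In NCM460 cells NDUFS4 had 2 and 22 fragments, a ratio of 7.92 with an interval from 1.95 to 69.5, and NDUFS7 was the lowest at -1.0 (-1.87 to -0.23). With the GC trend subtracted NDUFS7 was not called (-0.31, -1.19 to 0.45). The medians of these nuclear subunits lay above the log2 fold changes of the MT-CO1 and MT-CYB loci in both lines.

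Of 16 loci for the mitochondrial unfolded protein response and import stress, 6 were called higher and 3 lower in HT-29 cells (31.5% of all loci called), with a median of 0.05. In NCM460 cells 4 were called higher and 4 lower (29.2% of all loci called), with a median of -0.16. GDF15, a secreted stress factor, was the highest in HT-29 cells, with 144 and 1355 fragments and a log2 difference of 2.98 (2.75 to 3.26). It had 332 and 372 fragments in NCM460 cells, a log2 difference of -0.31 (-0.53 to -0.09). ATF5, merged with MIR4751 and a transcription factor of that response, was the lowest in both lines, with 77 and 20 fragments in HT-29 cells, a log2 difference of -2.02 (-2.97 to -1.45), and 13 and 5 in NCM460 cells, a log2 difference of -1.61 (-3.69 to -0.27). YME1L1, a protease of the inner membrane, was called higher in both, at 0.60 (0.34 to 0.88) in HT-29 cells, just past the threshold, and with 6 and 65 fragments in NCM460 cells at 2.77 (1.76 to 4.46). With the GC trend subtracted YME1L1 was not called in HT-29 cells and ATF5 not in NCM460 cells, and the counts became 5 higher and 3 lower in HT-29 cells (30.4% of all loci called) and 3 higher and 3 lower in NCM460 cells (11.9%).

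**Figure D5:**
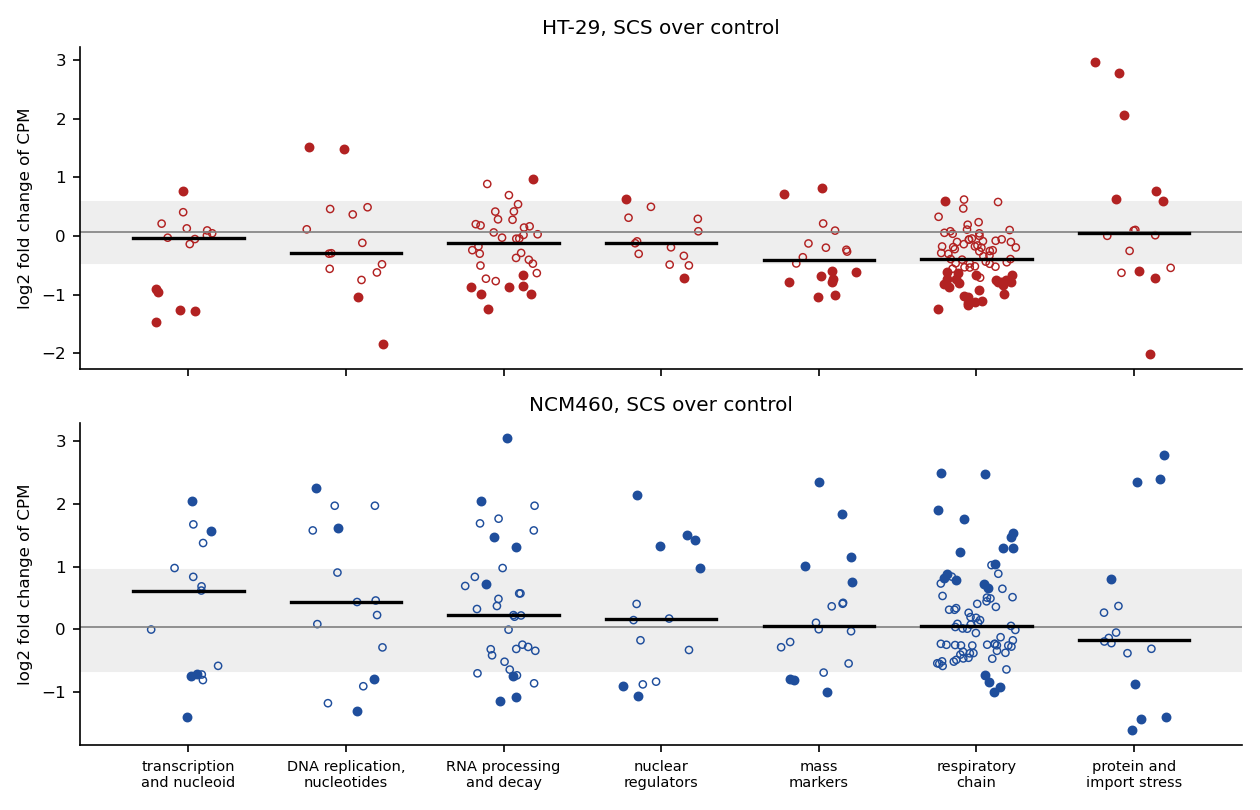
log2 fold change of CPM with SCS for each tested locus of 7 gene lists in HT-29 (top) and NCM460 cells (bottom); filled points were called, black bars are list medians, the grey line and band are the median and the quartiles of all loci tested. In HT-29 cells the bars of mass markers and respiratory chain subunits are the lowest, at -0.42 and -0.39, and in NCM460 cells that of the transcription and nucleoid list is the highest, at 0.62. The last is the value of TFB2M, with 2 and 5 fragments.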

How the data were processed

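RNA-seq of 4 libraries was used, 1 per condition. The submitters' notes name bcl2fastq 2.17.1.14, cutadapt 1.9.1, Bowtie2 and HTSeq 0.6.1, and the paper Cuffdiff. The deposited count columns are a signal: fragment counts that the authors divided by a library-specific factor. FPKM, also deposited by the authors, served as an alternative only. Division by the worth of 1 fragment (between 0.577 and 2.04) gave whole numbers, within 0.05, for 99.8% to 99.9% of values above 0, and these fragments were used where whole counts had been assumed. The 26 rows without a gene name (0.00581% to 0.0352% of counts) were left out. Libraries were scaled by TMM (edgeR 4.0.16), with a prior count of 2, and intervals are exact Clopper-Pearson intervals at 95%. With 1 library per condition, edgeR and DESeq2 could not be fitted within a cell line. A change shared by both lines was fitted with cell line as a term (edgeR quasi-likelihood, DESeq2 1.42.0, Benjamini-Hochberg adjustment).

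GC content came from the longest GENCODE 29 transcript of each locus, and the trend was a lowess fit over nuclear loci (span 0.3). In simulated data on the 12164 loci of HT-29 cells, 92 of 93 loci changed by 1 on the log2 scale and 107 of 107 changed by 2 were called, and 2.29% of unchanged loci. On the 12923 loci of NCM460 cells these were 73 of 97, 103 of 103 and 2.46%. The simulated counts carried counting error only, and the changed loci were nuclear ones at 20 CPM or more. Differences between libraries and the GC trend were not simulated. These rates therefore do not apply to the calls of the real libraries, nor to loci at lower levels. RefSeq windows were found for 6 of 6 nuclear members. The members and lists were chosen with earlier results of these data known. Named are the members, the mitochondrial loci, in each list the genes of highest and lowest log2 fold change by line (averaging 5 CPM or more) and those called the same way in both lines, and the 5 nearest loci. Marker genes are named as a list. SLIRP and YY1 were named after their values were seen. Alternatives were other size factors, prior counts, filters, depth, GC content and units.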

Additional observations from a re-analysis of the deposited data

Results flagged for a closer look

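Of 196 loci of the members and lists tested in both lines, 25 were called in both and 8 of these in opposite directions, each by 1 library against 1 library, so that the difference was not tested. Over all loci, 416 of 10849 were called in opposite directions and 822 in the same. LONP1 was called higher in HT-29 cells (0.76) and lower in NCM460 cells (-1.39), as were TIMM44 (0.82 and -0.81) and TRIB3, a target of ATF4 (2.07 and -1.42). The reverse was the case for SLIRP (-0.87 and 1.31), ETFA, an electron carrier subunit (-0.78 and 1.00), ATP5A1 (ATP5F1A, -0.92 and 1.04) and ATP5F1 (ATP5PB, -0.79 and 0.82), both subunits of ATP synthase, and HSPE1, a chaperonin in a merged locus (-0.72 and 0.80). In NCM460 cells LONP1, TRIB3 and ATP5A1 were still called after the GC trend was subtracted, at -0.69, -0.74 and 0.63, and the other 5 were not.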

How the results depend on the processing

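The log2 ratio of the mitochondrial share in HT-29 cells was -0.79 with the ribosomal RNA locus left out of both mitochondrial and total fragments. It was -1.72 with FPKM values summed and -1.24 without the 10 most abundant nuclear loci of each library. In NCM460 cells these values were -0.77, -0.21 and -0.39. With all fragments kept in the total, the mitochondrial loci other than the ribosomal one gave -0.40 in HT-29 and -0.33 in NCM460 cells. The log2 ratios of both lines stayed below 0 under each alternative tried, and the cause of these shifts was not tested. Scaling by total counts only shifted the median of all loci by 0.25 in HT-29 and 0.54 in NCM460 cells (log2), turned the median of the 6 nuclear members in HT-29 cells from -0.09 to 0.17, raised the members called between the lines with SCS to 7, and ended the calls of all 3 mitochondrial members in NCM460 cells and of MT-CO1 in HT-29 cells. The median of the 6 in NCM460 cells ranged from 0.17 to 1.40. Among values of single members, 198 kept their side of the threshold, 11 lost a call, 12 gained one and 0 called values changed sign. Against 822 loci called the same way in both lines, the edgeR fit of a shared change, with 1 residual degree of freedom, called 9 (695 at an unadjusted p under 0.05) and DESeq2, added after seeing the data, 27 (230). These fits pair SCS with control by cell line. Replicates could be neither paired nor left out, since each condition has 1 library. The rounding and nuclear-copy checks were also added after seeing the data. The smallest nuclear total, 507692 fragments in the NCM460 control, limits TFAM and TFB2M there.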
